A study of Oryza sativa with 6 samples.

Results

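Expression of 7 genes of phosphate signalling was examined in the roots of the rice cultivars 9311 and HHZ. The genes were PHR2, SPX1, SPX2, SPX3, SPX4, IPS1 and PHO2, taken by their identifiers from a list drawn up for this work. Of the 7 identifiers, 6 were rows of the count table, which holds 36844 genes, and 5 of these 6 had counts. All plants of both cultivars were grown in culture solution with 0.6 mM phosphate. At 50 days after germination they spent 2 days without NH4NO3 and then 3 h back in solution with 1 mM NH4NO3, after which the roots were frozen. There were 3 libraries of each cultivar, and both cultivars were treated alike, so the only difference by design was the cultivar. Phosphate supply was not varied, and no library was made before the resupply.

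In rice roots, PHR2 is a MYB transcription factor that switches on genes of the phosphate starvation response. SPX proteins sense the phosphate state through inositol phosphates and hold PHR2 back when phosphate is sufficient, SPX1 and SPX2 in the nucleus and SPX4 mainly by keeping it in the cytoplasm. PHO2 is a ubiquitin-conjugating enzyme by which phosphate transport proteins are removed, its transcript is cleaved under the guidance of the microRNA miR399, and the non-coding RNA IPS1 is a decoy for that microRNA. The pathway is tied to nitrogen supply, since nitrate leads to the breakdown of SPX4 protein and so frees PHR2. The libraries measure transcripts, not proteins.

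Library totals lay between 16622441 and 22646162 counts. One HHZ library, replicate 3, was unlike the rest of its cultivar, with a root mean square difference over all genes tested of 0.928 and 0.843 in log2 CPM to replicates 1 and 2, against 0.474 between those and 0.516 to 0.611 among the 9311 libraries. The fold changes, the counts of calls and the ratio of SPX1 to SPX2 were therefore also computed without each library in turn. Values are given as CPM, a gene's counts relative to its library's total, after TMM scaling in edgeR. The labels do not say whether the replicates came from separate plants, so the tests measure only the spread between these libraries. Root marker genes were not checked. By a rule set beforehand they were to be used only where a reference table paired them with the identifiers, which it did not.

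None of the 5 genes with counts differed between the cultivars beyond the spread of the replicates. With edgeR's quasi-likelihood test, 0 of the 5 passed the threshold of 0.05 on the Benjamini-Hochberg adjusted p, against 6.51% of the 22554 genes tested, and 0 had an unadjusted p under 0.05. DESeq2 called 0 of the 5 as well, against 11.2% of the genes to which it gave an adjusted p-value. With limma-voom the calls were 0 of the 5 and 1486 of the 22554 genes tested. The libraries of the cultivars overlapped for all 5 genes, whereas over all genes tested they did not overlap for 27.2%. The fitted level was higher in 9311 for 2 of the genes and lower for 3. Their median log2 fold change was -0.09, beside -0.01 over all genes tested, and their median size was 0.17, beside 0.26. With 5 genes, neither 0 calls nor 0 genes without overlap is far from its background share. These counts therefore do not set the pathway apart from other genes.

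**Figure D1:**
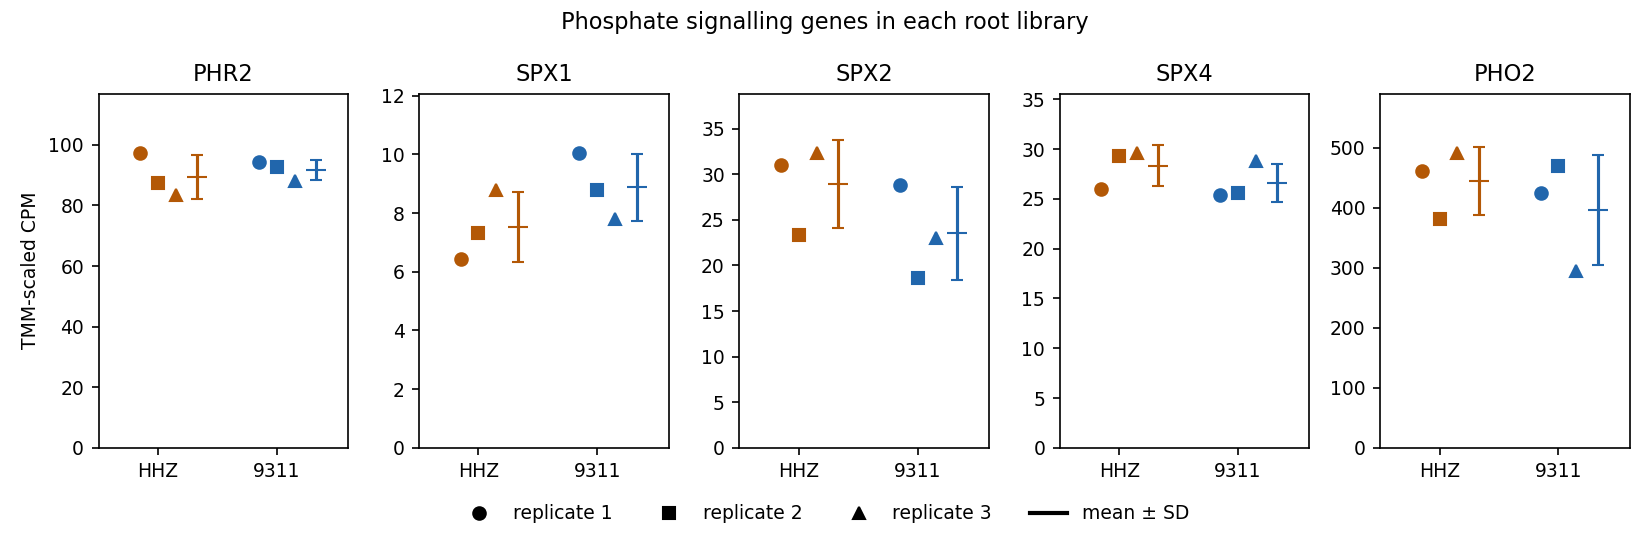
TMM-scaled CPM of the 5 genes with counts in each of the 6 root libraries, with HHZ in orange and 9311 in blue, a marker for each replicate and the mean ± SD of 3 libraries at the side. The scales differ between panels and start at 0, and in every panel the cultivars overlap.

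The regulator PHR2 (Os07g0438800) was expressed at nearly the same level in every library. Expression was 97.4, 87.3 and 83.6 CPM in the HHZ libraries (replicates 1, 2 and 3, the order used throughout). The 9311 libraries gave 94.2, 92.7 and 88.2 CPM. The 3 libraries of 9311 lay inside the range of HHZ, whose replicates 1 and 3 held the highest and the lowest value. The means were 89.4 ± 7.2 CPM (SD, n = 3) in HHZ and 91.7 ± 3.2 CPM (SD, n = 3) in 9311, so that 9311 over HHZ gave 0.04 on the log2 scale with a standard error of 0.102 (edgeR adjusted p = 0.877). The 95% interval of the fold, 9311 over HHZ, ran from 0.866 to 1.21. Without HHZ replicate 3 the log2 fold change was -0.02, and with library totals as the only scaling it was -0.09, where the median of all genes was -0.13.

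PHR2 was also among the least variable genes of the roots. Its highest library was 1.17 times its lowest, and 96.6% of the genes tested had a wider range in log2 CPM. Since counting error falls with the number of reads, the comparison was repeated among the 2450 genes with a mean CPM at least that of PHR2, of which 92.3% had a wider range. These shares are descriptions, and the gene was singled out after its values were seen.

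Of the SPX genes with counts, SPX4 (Os03g0827500), whose protein is the one removed in response to nitrate, had the smallest range. Its transcript stood at 25.9, 29.3 and 29.7 CPM in the HHZ libraries and at 25.4, 25.6 and 28.8 CPM in those of 9311. The lower values of both cultivars and the higher values of both lay side by side. The means were 28.3 ± 2.1 CPM (SD, n = 3) in HHZ and 26.6 ± 1.9 CPM (SD, n = 3) in 9311, and the log2 fold change was -0.09 with a standard error of 0.116 (edgeR adjusted p = 0.707). The 95% interval of the fold was 0.775 to 1.14. As for PHR2, the highest library was 1.17 times the lowest, and 96.4% of all genes tested, or 91.9% of the 7774 genes with at least its mean CPM, had a wider range. The spread between replicates was 7.26% of the mean in HHZ and 7.17% in 9311, where counting error alone would give 3.95% and 4.47%.

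SPX1 (Os06g0603600), which in rice is induced by phosphate starvation and acts back on PHR2, had the fewest reads of the 5 genes, with 133 to 209 counts per library. Expression was 6.42, 7.32 and 8.79 CPM in the HHZ libraries. The 9311 libraries gave 10.1, 8.78 and 7.78 CPM. The lowest values were in HHZ replicates 1 and 2 and the highest in 9311 replicate 1, but HHZ replicate 3 was level with 9311 replicate 2 and above 9311 replicate 3. The means were 7.51 ± 1.20 CPM (SD, n = 3) in HHZ and 8.87 ± 1.14 CPM (SD, n = 3) in 9311. This difference of 0.24 on the log2 scale, with a standard error of 0.189, was not called (edgeR adjusted p = 0.528). Without HHZ replicate 3 it was 0.36 (edgeR adjusted p = 0.293), without HHZ replicate 1 it was 0.14 (edgeR adjusted p = 0.784) and without 9311 replicate 1 it was 0.13 (edgeR adjusted p = 0.821). The 95% interval of the fold, 0.863 to 1.62, holds equal levels as well as a level 1.62 times as high in 9311. The spread between the HHZ replicates was 15.9% of their mean, where counting error alone would give 7.71%.

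For SPX2 (Os02g0202200), which acts with SPX1 on PHR2, the fitted difference had the opposite sign. Expression was 31.1, 23.4 and 32.4 CPM in the HHZ libraries. The 9311 libraries gave 28.8, 18.7 and 23.0 CPM. HHZ replicates 1 and 3 were the highest libraries and 9311 replicate 2 the lowest, while HHZ replicate 2 fell between 9311 replicates 1 and 3. The means were 28.9 ± 4.9 CPM (SD, n = 3) in HHZ and 23.5 ± 5.1 CPM (SD, n = 3) in 9311, which gave a log2 fold change of -0.30 with a standard error of 0.205 (edgeR adjusted p = 0.466). SPX2 had the widest range of the 5 genes, with the highest library 1.73 times the lowest. The 95% interval of the fold ran from 0.579 to 1.14. Its estimate moved with the libraries kept, from -0.16 without 9311 replicate 2 to -0.48 without 9311 replicate 1, and the adjusted p stayed above 0.05 in all of these edgeR fits.

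SPX3 (Os10g0392600), a further member of the family that is induced by phosphate starvation in rice, was listed with 0 counts in all 6 libraries. In the shallowest library, 9311 replicate 3, a count of 0 allows a level of up to 0.175 CPM (the value of 3 counts). Over the summed 3 libraries of a cultivar, the limit was 0.0441 CPM in HHZ and 0.0527 CPM in 9311. These limits cover counting error only and concern reads assigned to this gene, since the counting mode used leaves out reads that overlap more than 1 gene. In the order of the table, the next identifier, Os10g0392650, also had 0 counts in every library, whereas the identifiers on either side of the pair, Os10g0392500 and Os10g0392700, had 3 to 17 and 806 to 1053 counts. A count of 0 in every library was not rare, as it held for 7710 genes of the table (20.9%). No fold can be given for SPX3, and it was not among the genes tested.

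The decoy RNA IPS1 (Os03g0146800), the usual transcript marker of phosphate starvation in rice, was absent from the count table as used here, so its level was not analysed. The same arm of the pathway was therefore represented by PHO2 alone.

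PHO2 (Os05g0557700) took by far the most reads of the 5 genes, with 5029 to 10691 counts per library, and its mean CPM was above that of 99.0% of the genes tested. Counts are not divided by transcript length here, so levels cannot be ranked between genes. Expression was 461, 382 and 492 CPM in the HHZ libraries. The 9311 libraries gave 425, 470 and 294 CPM. Only 9311 replicate 3 stood below all HHZ libraries, and 9311 replicates 1 and 2 lay within the range of HHZ. The means were 444.9 ± 57.1 CPM (SD, n = 3) in HHZ and 396 ± 91.3 CPM (SD, n = 3) in 9311, which gave -0.17 on the log2 scale with a standard error of 0.206 (edgeR adjusted p = 0.699). The lower mean of 9311 rested on that library, for the log2 fold change was 0.01 without it (adjusted p = 0.979 in edgeR). The 95% interval of the fold was 0.633 to 1.25. Depth was not the limit for PHO2, since counting error was 1.00% of the mean in HHZ and 1.19% in 9311, and the spread between replicates was 12.8% and 23.0%.

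**Figure D2:**
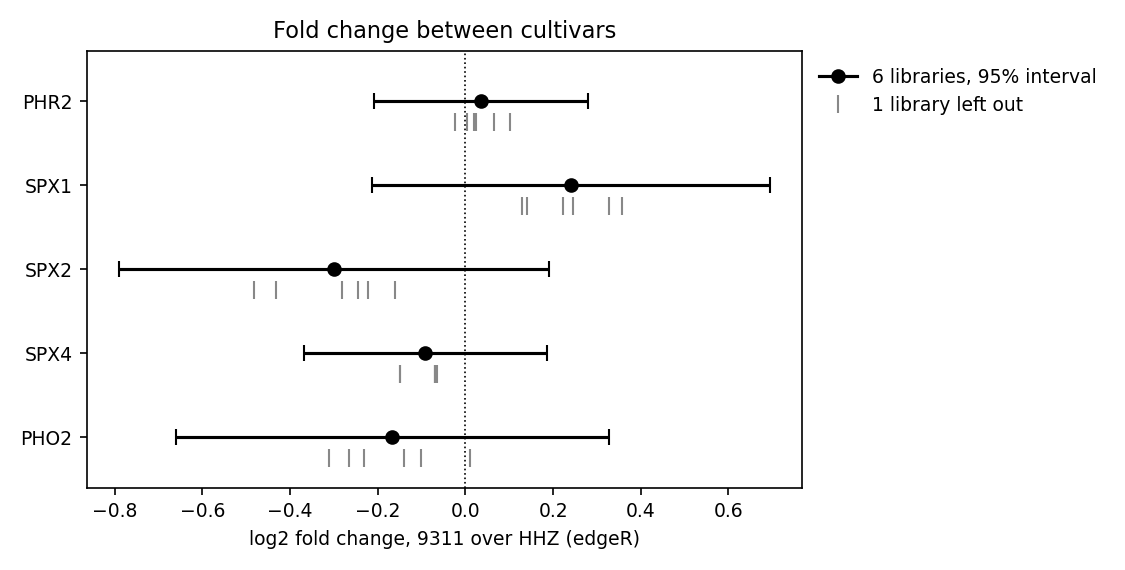
Log2 fold change of each gene, 9311 over HHZ, from edgeR with all 6 libraries (points, with the 95% interval as bars) and from the 6 fits that each left out 1 library (grey ticks). All 5 intervals include 0, and the ticks cross 0 for PHR2 and PHO2.

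The libraries with high and low values differed between the genes. Each profile was taken as log2 CPM minus the gene's own mean over the 6 libraries. In HHZ replicate 3, SPX1, SPX2, SPX4 and PHO2 were at their highest within HHZ, with deviations of 0.12, 0.33, 0.11 and 0.25, while PHR2 was at its lowest (-0.11). In 9311 replicate 3, PHO2 fell to -0.50 and SPX4 stood at 0.07, its highest within 9311. SPX2 was at -0.46 in 9311 replicate 2, where SPX1 and PHO2 were above their means (0.11 and 0.18). SPX1 was at -0.33 in HHZ replicate 1, where SPX2 was at 0.27. Within HHZ, SPX2 and PHO2 ran in parallel, and the log2 ratio of their counts had an SD of 0.071 there, beside 0.516 in 9311. Among the 10 pairs of these genes, these were the smallest and the largest SD in either cultivar. Each rests on 3 libraries, and the pair was singled out after its values were seen. Whether the state of HHZ replicate 3 has a part in its values was not tested.

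**Figure D3:**
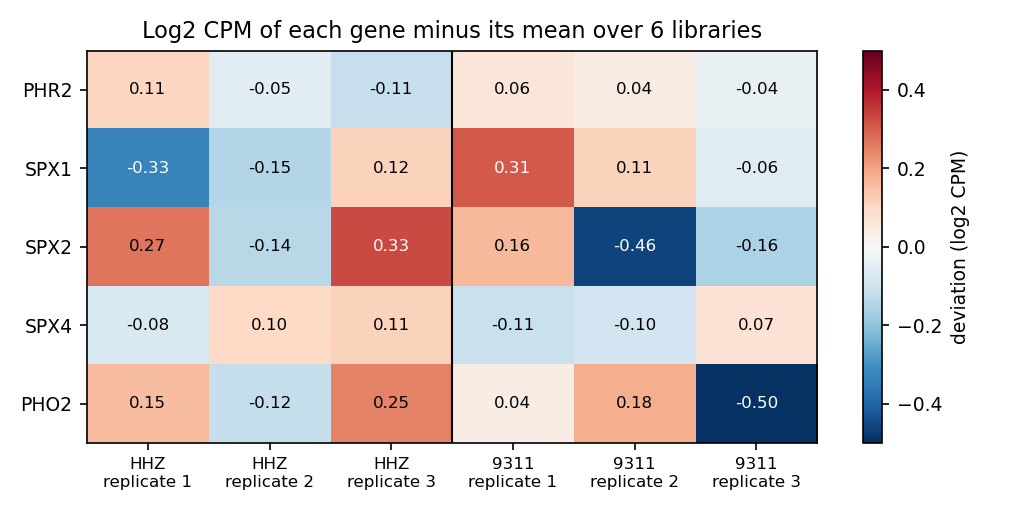
Deviation of log2 CPM from the gene's mean over the 6 libraries, for the 5 genes with counts (rows) in each library (columns, HHZ left of the line and 9311 right of it). The widest deviations are those of PHO2 in 9311 replicate 3 (-0.50) and SPX2 in 9311 replicate 2 (-0.46), and the rows of PHR2 and SPX4 stay within 0.12 of 0.

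The likeness of these profiles was measured as their root mean square difference. The closest pair was PHR2 and SPX4, with 0.167, which are also the flattest genes, and PHR2 had rank 4156 among the 22553 other genes by nearness to SPX4. The most distant pair was SPX1 and SPX2, with 0.358. SPX2 had rank 10728 by nearness to SPX1, and SPX1 had rank 8749 by nearness to SPX2. By rank the order of the pairs was different. The ranks ran from 2855, for PHR2 by nearness to PHO2, to 11099, for PHO2 by nearness to SPX4. The genes nearest to SPX1 were Os04g0631600 and Os01g0830700, with differences of 0.0227 and 0.0288, for which the table gives no name. Neither of them passed the threshold between the cultivars (adjusted p = 0.413 and 0.441 in edgeR). Because they were picked for their likeness to SPX1 over the same libraries, this result largely follows from the choice.

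The balance between genes of the pathway was compared through the ratio of their counts within a library, which does not depend on the scaling. For the 10 pairs that the 5 genes form, the cultivars did not overlap in 1, the ratio of SPX1 to SPX2. Over all pairs of genes tested they did not overlap in 30.0%, so 1 of 10 pairs, which share genes, does not stand above the background. There were 0.207, 0.313 and 0.272 counts of SPX1 for each count of SPX2 in the HHZ libraries, and the 9311 libraries had 0.349, 0.470 and 0.338. The ratio was higher in every library of 9311 than in any of HHZ, and the means differed by 0.55 on the log2 scale (SD 0.304 in HHZ and 0.263 in 9311, n = 3 each). The pair was singled out after its values were seen, so no test is given, and an exact permutation test of 3 libraries against 3 cannot give p below 0.1. Without each library in turn the difference lay between 0.39 and 0.69.

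The ratio of PHR2 to its cytoplasmic inhibitor SPX4 overlapped between the cultivars. There were 3.76, 2.98 and 2.82 counts of PHR2 for each count of SPX4 in the HHZ libraries, and the 9311 libraries had 3.72, 3.62 and 3.06. HHZ replicate 1 was the highest library and 9311 replicate 3 lay near HHZ replicate 2. The difference in mean log2 ratio was 0.13, beside an SD of 0.220 in HHZ and 0.151 in 9311. For PHR2 against SPX1 and SPX2 the differences were -0.21 and 0.35, and the libraries overlapped in both.

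**Figure D4:**
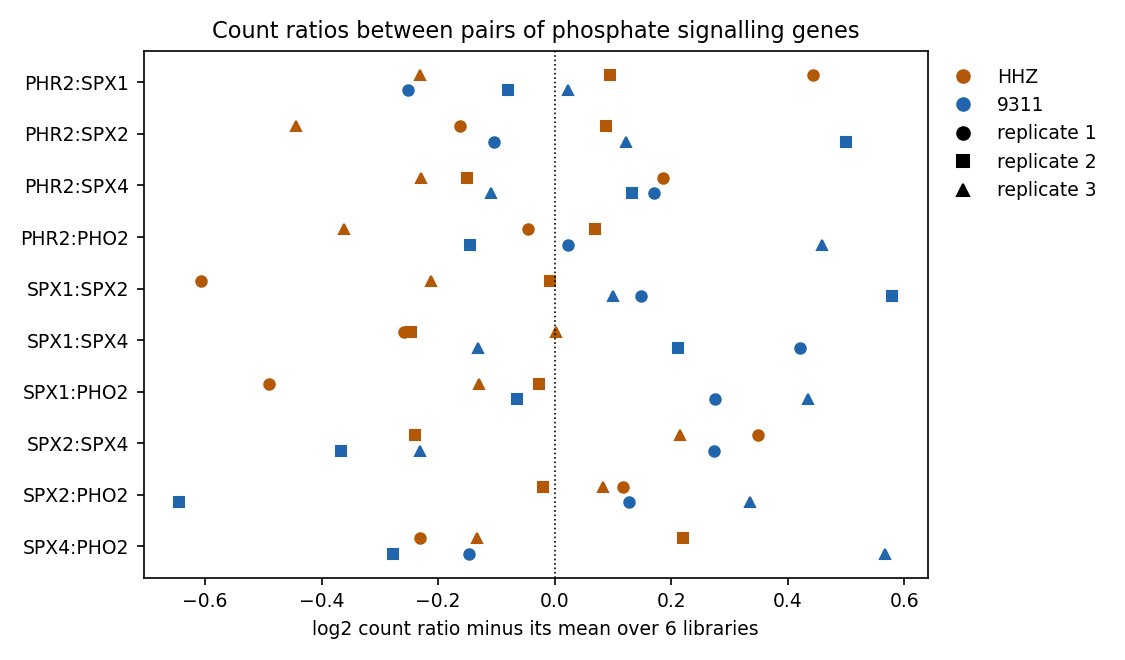
Log2 ratio of counts for the 10 pairs of genes, minus the mean of that pair over the 6 libraries, with HHZ in orange and 9311 in blue and a marker for each replicate. Blue and orange separate for SPX1:SPX2 and overlap for the other 9 pairs.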

How the data were processed

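Raw counts of reads per gene were deposited by the authors, with 1 column per library and no normalization. Per the paper's methods, reads were trimmed with cutadapt and counted while being aligned with STAR to IRGSP-1.0 with the Ensembl Plants annotation. The submitters' processing notes name Trim Galore and STAR 2.5.3a instead, and the versions differ between the 2 sources. The strand setting is not given in the sources used here. Reads of both cultivars were aligned to 1 japonica reference, so a diverged gene can lose counts.

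From the deposited counts, genes were filtered with filterByExpr (minimum count 10), scaled by TMM and tested with edgeR 4.0.16 in R 4.3.3, with cultivar as the only term, adjustment over all genes tested and a threshold of 0.05. The standard error is the log2 fold change over the square root of F, and the 95% interval uses the degrees of freedom of that test. Profiles use log2 CPM with a prior count of 2, and 0.5 was added to counts before log ratios. The smallest library held 16622441 counts, and with its size after TMM scaling 3 counts equal 0.175 CPM. Replicates differed by more than sampling noise (chi-square per degree of freedom 22.3 to 98.6). The other settings tried were limma-voom (limma 3.58.1), DESeq2 1.42.0, other scalings and filters, a replicate block and each library left out. The methods were run on simulated data with the same spread between replicates, beyond counting error, for every gene. The changes set there were larger than any fitted for the phosphate signalling genes, so small differences were not covered.

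The members, lists and tests were chosen with earlier results of these data known. Named genes were all members and the 2 genes nearest in profile to SPX1 (and to IPS1, which had no row). Other pathway genes and markers of root and leaf were to be named only where a RefSeq gene table (assembly ASM3414082v1) paired them with the identifiers. It held 5 of the 7 symbols but 0 of the 7 identifiers, so these genes were not analysed, and no sequences were used.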

Additional observations from a re-analysis of the deposited data

How the results depend on the processing

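In all 14 alternatives, 0 of the 5 genes were called, and SPX1, SPX2 and SPX4 kept their direction, with log2 fold changes of 0.12 to 0.36, -0.48 to -0.16 and -0.21 to -0.06. PHR2 turned to -0.092 with library totals only, a scaling that moved the median of all genes to -0.13, and ranged from -0.023 to 0.102 over the fits that left out 1 library, being negative without HHZ replicate 3. PHO2 ranged from -0.311 to 0.010 over these fits and was positive without 9311 replicate 3. The lowest adjusted p of any of the 5 genes was 0.293 (SPX1, edgeR without HHZ replicate 3). The number of genes called over the whole table was 1468, against 2885 with DESeq2, 563 when every library needed 10 counts, and 761 to 2724 with 1 library left out, the highest without HHZ replicate 3. The cause was not tested. Library totals only gave 633 calls higher in 9311 and 818 higher in HHZ, against 733 and 735.

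Over all genes tested, libraries of equal replicate number had correlations of -0.117, 0.0846 and -0.126 between their deviations from the cultivar means. Between libraries of unequal number the correlations ran from -0.393 (HHZ replicate 2 with 9311 replicate 1) to 0.314 (HHZ replicate 3 with 9311 replicate 1). Those of equal number lay within that range. With 3 libraries per cultivar, these correlations cannot decide whether the replicates were paired. A fit with the replicate block called 470 genes and 0 of the 5. Counting error is largest for SPX1, and the intervals of SPX1, SPX2 and PHO2 are wide with 3 libraries per cultivar.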
